A study of Arabidopsis thaliana with 12 samples.

Results

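Cysteine-rich receptor-like kinases (CRKs) form one of the large receptor kinase families of Arabidopsis thaliana. The 41 genes described here are the loci numbered CRK1 to CRK42 in the family's naming, except the locus known as CRK35, and were found by their locus identifiers in the count tables of a study of boron nutrition, which list 27655 genes. The rule names the family and uses no measured value, but the family was picked with earlier results of these data known. Of the 41 genes, 36 lie on chromosome 4, among them a run of 20, CRK5 to CRK24. RefSeq gives 3 of them other symbols, which are RKF2 for CRK1, EP1 for CRK9 and EMB1290 for CRK17.

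A typical CRK spans the plasma membrane, with a cysteine-rich DUF26 ectodomain outside the cell and a serine/threonine kinase domain inside. Many CRK transcripts are known to rise with pathogens, salicylic acid, ozone and other sources of reactive oxygen, and several members act beside pattern receptors and the NADPH oxidases that make the apoplastic oxidative burst. The same ectodomain, without the kinase, is found in the plasmodesmata-located proteins (PDLPs).

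The study grew wild-type Col-0 seedlings from sowing on solid MGRL medium with sucrose at 1 of 3 boric acid supplies: 0.3 µM (low boron), 30 µM (Ctrl) or 500 µM (high boron). Whole shoots were taken at 14 days, and each replicate pooled many seedlings. From these shoots, mRNA was sequenced and ribosome footprints (the mRNA stretches that translating ribosomes protect from RNase) were sequenced by Ribo-seq, with 2 libraries per supply in each assay. The purpose named in the study's title is to find how translation responds to boron.

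The table columns number the libraries of each group 2 and 3, and values are given below in that order. Library totals ran between 7563365 and 9256564 counts for mRNA and between 6903881 and 24206655 for footprints. Levels are CPM, counts relative to library size after TMM scaling, which follow gene length as well as abundance, so levels are compared between supplies and not between genes. A gene is called where edgeR's quasi-likelihood test gave a Benjamini-Hochberg adjusted p under 0.05 over all genes tested, and log2 changes are given ± SE. Green-tissue transcripts were abundant in all libraries, whereas the summed mRNA counts of 3 root hair genes and of 2 root endodermis genes did not exceed 6 in any library, which matches the label of whole shoot. In bulk shoots, fewer cells of a type and less RNA per cell cannot be told apart.

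The family's mRNA was higher at low boron and lower at high boron than in Ctrl. Summed over the 41 genes, mRNA came to 1702 and 1746 CPM in the 2 low-boron libraries, 971 and 874 CPM in the 2 Ctrl libraries and 689.7 and 754 CPM in the 2 high-boron libraries. Footprints came to 1859 and 1914 CPM at low boron, 1095 and 1164 CPM in Ctrl and 820.3 and 834 CPM at high boron. The 3 supplies did not overlap in either assay. As ratios of group means, the low-boron sum was 1.87 times the Ctrl sum for mRNA and 1.67 times for footprints, and the high-boron sum was 0.782 times and 0.732 times the Ctrl sum.

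At low boron, 25 of the 37 members tested for mRNA rose and 1 fell, while of all 18403 genes tested 33.3% were called, 19.5% higher and 13.8% lower. The median log2 change of the 37 was 0.77, beside 0.02 over all genes tested. At high boron, 13 of the 37 fell and 1 rose, while 9.06% of all genes were called, 4.55% lower and 4.50% higher, and the members' median was -0.52, beside -0.01 over all genes. The 2 comparisons share the Ctrl libraries. The 4 members not tested for mRNA were CRK1, CRK26, CRK32 and CRK33, of which CRK1 and CRK33 had 0 counts in all 12 libraries and CRK26 and CRK32 stayed at or under 1.13 CPM of mRNA. No member reached the mRNA filter's cutoff in low-boron libraries alone, but CRK39 passed only with those libraries counted. It reached the cutoff in 2 low-boron, 1 Ctrl and 0 high-boron libraries, and is among the 25 that rose. Without high-boron library 2, mRNA calls at high boron came to 7 in place of 14, and CRK2, CRK13 and CRK38 were lost in that alternative alone.

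**Figure D1:**
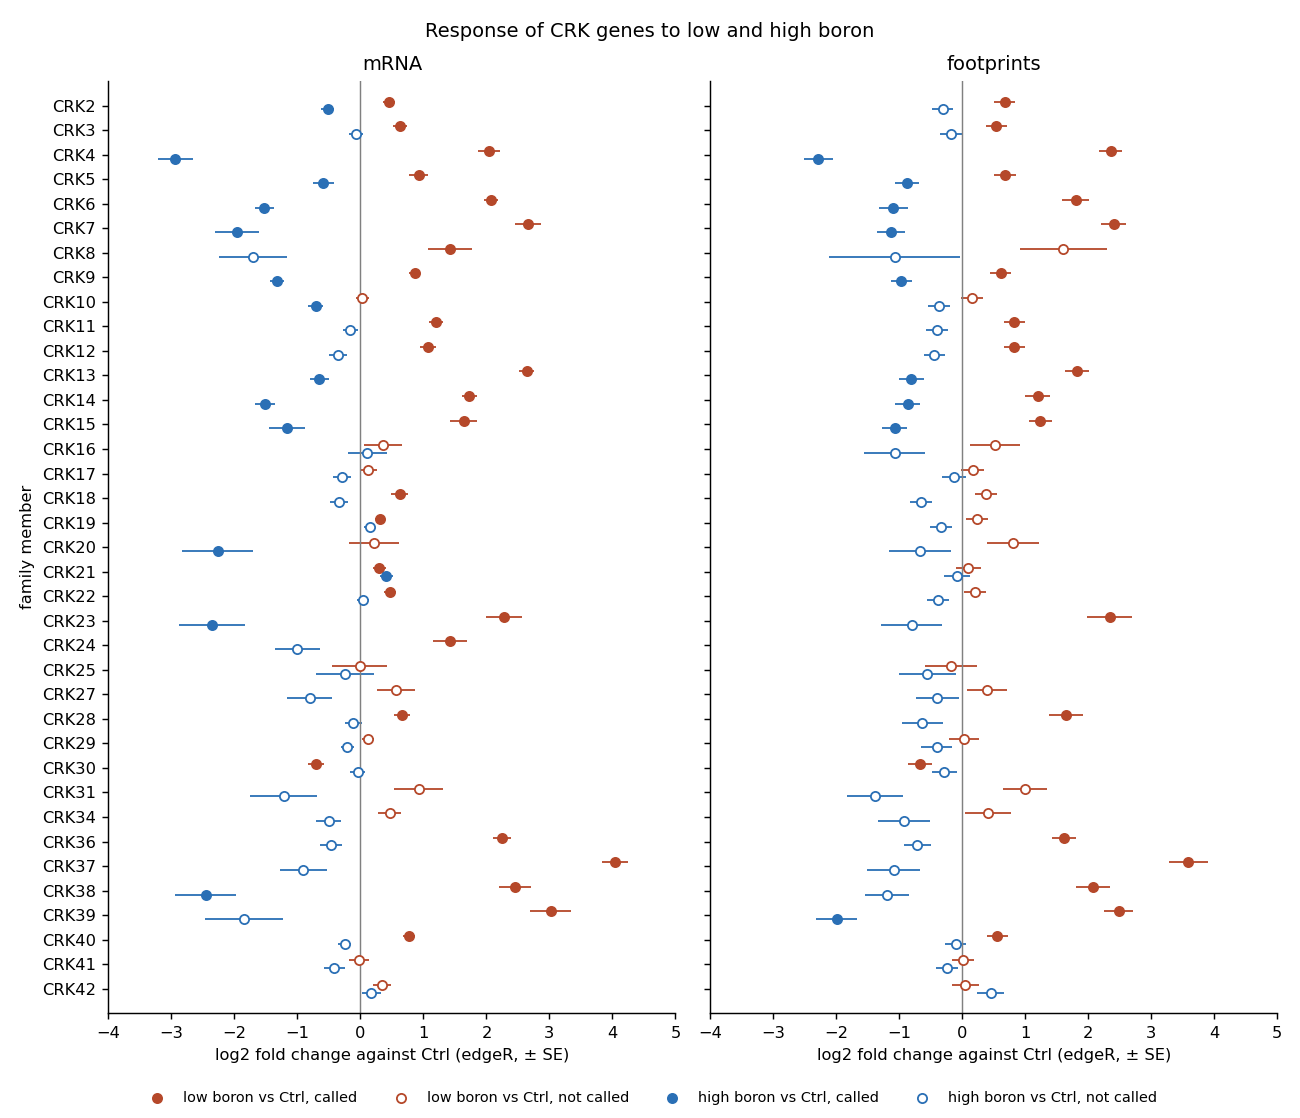
log2 fold change against Ctrl (edgeR, ± SE) at low and at high boron, in a panel for mRNA (37 CRK genes tested) and a panel for footprints (36 tested). Filled points are calls and open points are genes that were not called. In the mRNA panel most of the low-boron points lie above 0, up to 4.04 for CRK37. Most of its high-boron points lie below 0, down to -2.94 for CRK4.

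Members known to work with immune receptors or the oxidative burst differed in their response. CRK2, which phosphorylates the NADPH oxidase RBOHD, had mRNA of 73.7 and 74.8 CPM at low boron, 54.4 and 53.7 CPM in Ctrl and 33.9 and 41.3 CPM at high boron. The 3 supplies did not overlap, and the log2 change was 0.46 ± 0.10 (adjusted p = 0.00181) at low boron and -0.52 ± 0.10 (adjusted p = 0.0044) at high boron. Its footprints were 127 and 134 CPM at low boron, 74.9 and 88.9 CPM in Ctrl and 68.4 and 63.2 CPM at high boron. The log2 change was 0.67 ± 0.17 (adjusted p = 0.014) at low boron and -0.31 ± 0.17 (adjusted p = 0.558) at high boron, where it was not called. The mRNA fall was lost without high-boron library 2 (adjusted p from 8.5e-05 to 0.0719 over the alternatives). The footprint rise was lost without either low-boron library or Ctrl library 2 (adjusted p from 0.00334 to 0.136 over the alternatives).

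CRK36, which associates with the flagellin receptor FLS2 and the kinase BIK1 and takes part in abscisic acid responses, had mRNA levels of 52.4 and 67.6 CPM at low boron, 12.4 and 12.9 CPM in Ctrl and 9.37 and 8.99 CPM at high boron. Both low-boron libraries lay far above the others, with a log2 rise of 2.24 ± 0.14 (adjusted p = 3.24e-08). Its footprints were 33.7 and 33.7 CPM at low boron, 10.5 and 11.6 CPM in Ctrl and 6.44 and 6.99 CPM at high boron. This gave a log2 change of 1.62 ± 0.19 (adjusted p = 5.13e-05). At high boron both libraries lay below both Ctrl libraries in each assay, and neither change was called. These were -0.46 ± 0.18 (adjusted p = 0.13) for mRNA and -0.72 ± 0.21 (adjusted p = 0.129) for footprints.

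CRK28, which associates with the co-receptor BAK1, had mRNA levels of 38.7 and 44.5 CPM at low boron, 25.3 and 27.0 CPM in Ctrl and 27.3 and 21.2 CPM at high boron. It rose by 0.67 ± 0.13 (adjusted p = 0.000908) at low boron, where its footprints rose by 1.65 ± 0.28 (adjusted p = 0.000924). CRK29, its neighbour and close relative, had mRNA levels of 63.7 and 61.3 CPM at low boron, 53.6 and 61.6 CPM in Ctrl and 53.2 and 46.7 CPM at high boron. Its changes, 0.12 ± 0.10 (adjusted p = 0.387) at low boron and -0.21 ± 0.10 (adjusted p = 0.242) at high boron, were not called, nor were those of its footprints. The annotated spans of these 2 genes overlap in RefSeq's TAIR10.1, as do those of CRK10 and CRK11 and those of CRK16 and CRK17, so reads of each pair may not have been fully separated by the authors' counting.

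CRK6 and CRK7, a neighbouring pair known to protect against extracellular reactive oxygen, both moved at both supplies. CRK6 mRNA was 82.8 and 90.6 CPM at low boron, 22.5 and 18.6 CPM in Ctrl and 6.93 and 7.25 CPM at high boron. The change against Ctrl was 2.08 ± 0.11 (adjusted p = 6.41e-09) at low boron and -1.53 ± 0.15 (adjusted p = 1.89e-05) at high boron. CRK7 mRNA was 38.2 and 48.7 CPM at low boron, 8.85 and 4.84 CPM in Ctrl and 2.05 and 1.52 CPM at high boron. Its log2 change was 2.66 ± 0.21 (adjusted p = 2.58e-07) at low boron and -1.95 ± 0.35 (adjusted p = 0.00245) at high boron. For both genes the 3 supplies stood apart in every library, although the 2 Ctrl libraries of CRK7 differed between themselves.

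Their footprints kept the same order of supplies. CRK6 had footprint levels of 107 and 142 CPM at low boron, 29.7 and 42.1 CPM in Ctrl and 14.2 and 19.5 CPM at high boron. The log2 changes were 1.80 ± 0.22 (adjusted p = 6.14e-05) and -1.10 ± 0.23 (adjusted p = 0.0196) at low and at high boron. CRK7 had footprint levels of 61.1 and 77.4 CPM at low boron, 11.7 and 14.7 CPM in Ctrl and 5.70 and 6.30 CPM at high boron. These gave changes of 2.40 ± 0.20 (adjusted p = 2.39e-06) and -1.13 ± 0.23 (adjusted p = 0.0163) at low and at high boron. Both falls of footprints were lost on leaving out library 3 of Ctrl or library 2 of high boron, and adjusted p reached 0.204 for CRK6 and 0.145 for CRK7.

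**Figure D2:**
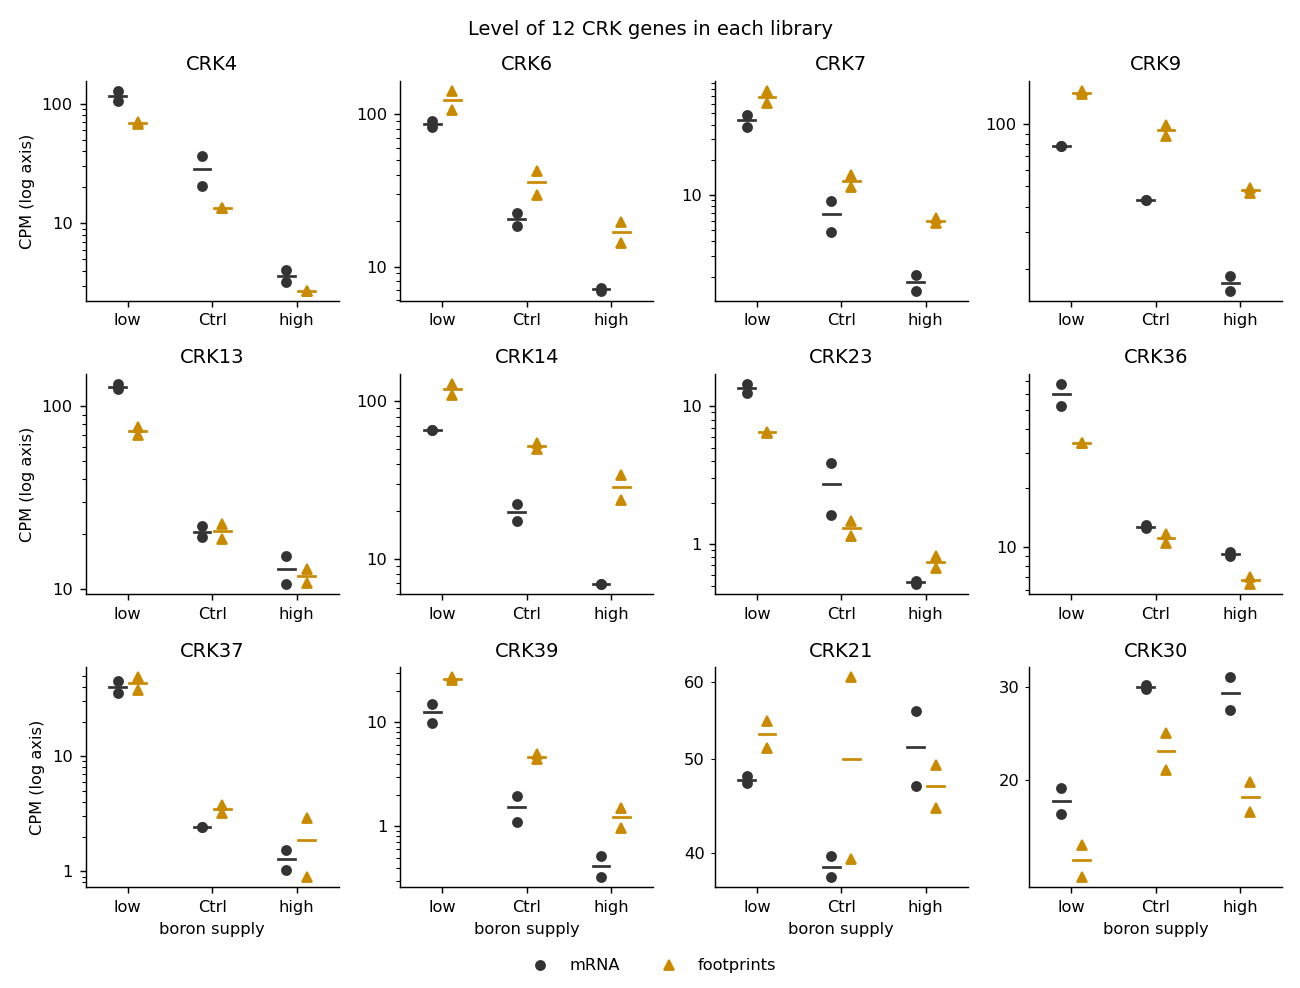
CPM on a log axis of 12 CRK genes in each of the 12 libraries, by boron supply, with points for mRNA, triangles for footprints and bars for the means of 2 libraries. In CRK4, CRK6 and CRK7 the 3 supplies are separate in both assays, in CRK21 the mRNA is lowest in Ctrl, and in CRK30 it is lowest at low boron.

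Several members are known to trigger cell death when overexpressed, CRK4, CRK5, CRK13, CRK19 and CRK20 among them. CRK4 showed the widest span of these: its mRNA was 106 and 127 CPM at low boron, 36.2 and 20.4 CPM in Ctrl and 3.21 and 4.11 CPM at high boron. That was a log2 change of 2.04 ± 0.17 (adjusted p = 6.5e-07) at low boron and -2.94 ± 0.28 (adjusted p = 1.36e-05) at high boron, the deepest fall of any member tested. Its footprints were 67.0 and 70.0 CPM at low boron, 13.4 and 13.3 CPM in Ctrl and 2.74 and 2.74 CPM at high boron. Against Ctrl the changes were 2.36 ± 0.18 (adjusted p = 1.12e-06) and -2.28 ± 0.23 (adjusted p = 9.9e-05).

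CRK13, whose overexpression raises salicylic acid and resistance to Pseudomonas syringae, had mRNA of 132 and 124 CPM at low boron, 19.1 and 22.0 CPM in Ctrl and 10.7 and 15.2 CPM at high boron. The low-boron libraries were the high ones, with a rise of 2.64 ± 0.12 (adjusted p = 1.91e-09), and at high boron it fell, with a change of -0.66 ± 0.15 (adjusted p = 0.013). Footprints were 69.4 and 76.6 CPM at low boron, 18.8 and 22.7 CPM in Ctrl and 10.8 and 12.9 CPM at high boron. Its log2 changes were 1.82 ± 0.19 (adjusted p = 1.33e-05) and -0.81 ± 0.20 (adjusted p = 0.0475) at low and at high boron. The mRNA fall was lost without high-boron library 2 (adjusted p from 0.000202 to 0.153 over the alternatives). The footprint fall was lost with limma voom, with the strict filter, in the fit of 2 groups and without any 1 library (adjusted p from 0.00836 to 0.31 over the alternatives).

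CRK5 had mRNA levels of 58.7 and 67.7 CPM at low boron, 39.9 and 26.5 CPM in Ctrl and 19.3 and 24.8 CPM at high boron, and its Ctrl libraries lay further apart than its high-boron libraries did. The change was 0.92 ± 0.15 (adjusted p = 0.000316) at low boron and -0.59 ± 0.17 (adjusted p = 0.0478) at high boron. Its footprints, 38.3 and 38.6 CPM at low boron, 23.4 and 24.8 CPM in Ctrl and 12.2 and 14.3 CPM at high boron, were tighter within supplies. Their changes were 0.68 ± 0.18 (adjusted p = 0.0169) and -0.87 ± 0.19 (adjusted p = 0.0243). The mRNA fall was lost under 10 of 14 alternatives (adjusted p from 8.11e-05 to 0.344 over the alternatives). Each footprint call was lost without some single libraries, Ctrl library 2 among them, with adjusted p up to 0.132 at low boron and 0.202 at high boron.

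CRK19 and CRK20 moved less at low boron. CRK19 had mRNA levels of 112 and 119 CPM at low boron, 97.3 and 89.5 CPM in Ctrl and 98.6 and 108 CPM at high boron. The log2 change was 0.31 ± 0.08 (adjusted p = 0.0112) at low boron and 0.14 ± 0.09 (adjusted p = 0.358) at high boron, of which only the first was called. That call was lost with DESeq2 and without low-boron or Ctrl library 3 (adjusted p from 0.00511 to 0.127 over the alternatives). CRK20 had little mRNA, 2.26 and 1.79 CPM at low boron, 1.66 and 1.84 CPM in Ctrl and 0.257 and 0.433 CPM at high boron. It fell at high boron with a change of -2.27 ± 0.56 (adjusted p = 0.0204), while its change at low boron was 0.21 ± 0.39 (adjusted p = 0.728). CRK20 footprints, 2.74 and 2.30 CPM at low boron, 1.55 and 1.32 CPM in Ctrl and 0.888 and 0.959 CPM at high boron, were called at neither supply. Its mRNA fall did not hold without Ctrl library 3 or without either library of high boron (adjusted p from 0.0122 to 0.149 over the alternatives).

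CRK10, in which a gain-of-function allele is known to stunt growth and collapse xylem vessels, responded at one end of the range only. Its mRNA was 82.8 and 69.2 CPM at low boron, 74.4 and 74.6 CPM in Ctrl and 40.3 and 50.2 CPM at high boron, so that the low-boron and Ctrl libraries overlapped and the high-boron libraries lay below both. The change was 0.03 ± 0.11 (adjusted p = 0.862) at low boron and -0.71 ± 0.11 (adjusted p = 0.000971) at high boron. Its footprints, 187 and 158 CPM at low boron, 168 and 143 CPM in Ctrl and 121 and 119 CPM at high boron, were not called against Ctrl at either supply. Their changes were 0.15 ± 0.17 (adjusted p = 0.635) at low boron and -0.37 ± 0.17 (adjusted p = 0.442) at high boron.

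The run CRK36 to CRK40, which holds 5 of the 6 protein-coding genes between AT4G04490 and AT4G04570, rose together at low boron. All 5 rose in mRNA and in footprints, beside 19.5% and 8.05% of all genes tested. The median log2 change was 2.46 for mRNA and 2.07 for footprints. CRK37 rose more than any other member: its mRNA was 35.2 and 45.0 CPM at low boron, 2.43 and 2.42 CPM in Ctrl and 1.03 and 1.52 CPM at high boron. This gave a log2 change of 4.04 ± 0.20 (adjusted p = 4.32e-09), or 16.4-fold. Its footprints were 37.4 and 48.4 CPM at low boron, 3.76 and 3.23 CPM in Ctrl and 0.888 and 2.88 CPM at high boron. The change against Ctrl was 3.59 ± 0.31 (adjusted p = 2.83e-06). CRK37 was called at high boron in neither assay, with changes of -0.90 ± 0.37 (adjusted p = 0.165) for mRNA and -1.09 ± 0.42 (adjusted p = 0.283) for footprints.

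CRK38 and CRK39 had low levels in Ctrl, and CRK39 passed the mRNA filter only with its low-boron libraries counted. CRK38 mRNA was 12.8 and 12.8 CPM at low boron, 1.99 and 2.65 CPM in Ctrl and 0.257 and 0.541 CPM at high boron. Its log2 change was 2.46 ± 0.25 (adjusted p = 3.89e-06) at low boron and -2.46 ± 0.48 (adjusted p = 0.00452) at high boron. CRK39 mRNA was 15.0 and 9.89 CPM at low boron, 1.11 and 1.96 CPM in Ctrl and 0.514 and 0.325 CPM at high boron. That was a log2 change of 3.02 ± 0.32 (adjusted p = 5.64e-06) at low boron and -1.85 ± 0.62 (adjusted p = 0.0809) at high boron, where it was not called. CRK39 footprints were 25.7 and 27.0 CPM at low boron, 4.91 and 4.40 CPM in Ctrl and 0.962 and 1.51 CPM at high boron. Both changes were called, at 2.48 ± 0.23 (adjusted p = 5.68e-06) and -1.99 ± 0.33 (adjusted p = 0.00397). CRK38 footprints were 14.5 and 18.4 CPM at low boron, 3.19 and 4.84 CPM in Ctrl and 1.55 and 1.92 CPM at high boron. They rose by 2.07 ± 0.27 (adjusted p = 0.000128) at low boron, and the change at high boron, -1.19 ± 0.35 (adjusted p = 0.122), was not called. CRK40 mRNA was 90.5 and 87.9 CPM at low boron, 57.3 and 47.0 CPM in Ctrl and 43.8 and 44.0 CPM at high boron. It rose by 0.77 ± 0.10 at low boron (adjusted p = 2.38e-05). CRK40 footprints were 127 and 121 CPM at low boron, 81.8 and 87.4 CPM in Ctrl and 77.3 and 79.9 CPM at high boron. Their rise at low boron, 0.56, was the smallest of the run, and its call did not hold under every alternative. The fall of CRK38 mRNA was lost without high-boron library 2 (adjusted p from 9.28e-05 to 0.0581 over the alternatives), and without high-boron library 3 it came to -3.10. The fall of CRK39 footprints was lost without library 2 of Ctrl or of high boron (adjusted p from 3e-06 to 0.0929 over the alternatives).

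The run of 20, CRK5 to CRK24, fills all but 1 of the 21 protein-coding places between AT4G23130 and AT4G23320. Of these 20 genes, 16 rose in mRNA at low boron and the other 4 were not called, with a median log2 change of 1.00, and 10 fell and 1 rose at high boron, with a median of -0.68. The shares of all genes tested were 19.5% higher at low boron and 4.55% lower at high boron. The responses were uneven along the run. The 7 genes CRK16 to CRK22 had low-boron changes between 0.12 for CRK17 and 0.62 for CRK18, and CRK10 stood at 0.03. The others had changes between 0.86 for CRK9 and 2.66 for CRK7. Footprints were tested for 19 genes of the run, of which 10 rose at low boron while 7 had fallen at high boron, beside 8.05% and 1.51% of all genes tested.

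CRK9 and CRK14 moved at both supplies. CRK9 mRNA was 78.2 and 78.5 CPM at low boron, 43.0 and 43.2 CPM in Ctrl and 15.7 and 18.5 CPM at high boron. The log2 changes were 0.86 ± 0.09 (adjusted p = 5.16e-06) and -1.33 ± 0.11 (adjusted p = 4.56e-06) at low and at high boron. Its footprints were 139.9 and 145 CPM at low boron, 87.2 and 99.5 CPM in Ctrl and 46.6 and 49.1 CPM at high boron. These gave changes of 0.61 ± 0.17 (adjusted p = 0.021) and -0.96 ± 0.17 (adjusted p = 0.00648). CRK14 mRNA was 65.7 and 66.1 CPM at low boron, 22.4 and 17.4 CPM in Ctrl and 6.93 and 6.93 CPM at high boron. Against Ctrl the changes were 1.73 ± 0.12 (adjusted p = 7.79e-08) and -1.52 ± 0.16 (adjusted p = 3.26e-05). CRK14 footprints were 109.5 and 128 CPM at low boron, 49.9 and 54.0 CPM in Ctrl and 23.5 and 33.9 CPM at high boron. Its log2 changes were 1.20 ± 0.19 (adjusted p = 0.00071) and -0.87 ± 0.20 (adjusted p = 0.0339). In both genes the 3 supplies were separate in every library of each assay. Single libraries ended the high-boron footprint call of each (adjusted p up to 0.072 for CRK9 without high-boron library 2, and up to 0.301 for CRK14 without that library or either Ctrl library) and the low-boron footprint call of CRK9 (up to 0.169 without either low-boron library or Ctrl library 2).

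CRK15 and CRK23 moved the same way with a wider spread in Ctrl. CRK15 mRNA was 30.3 and 25.4 CPM at low boron, 11.7 and 6.11 CPM in Ctrl and 4.24 and 3.79 CPM at high boron. The log2 changes were 1.64 ± 0.21 (adjusted p = 3.43e-05) and -1.16 ± 0.29 (adjusted p = 0.02) at low and at high boron. Its footprints were 41.7 and 39.2 CPM at low boron, 17.8 and 16.4 CPM in Ctrl and 8.00 and 8.36 CPM at high boron. These gave changes of 1.24 ± 0.18 (adjusted p = 3e-04) and -1.07 ± 0.20 (adjusted p = 0.00891). CRK23 mRNA was 12.4 and 14.4 CPM at low boron, 3.87 and 1.61 CPM in Ctrl and 0.514 and 0.541 CPM at high boron. Against Ctrl the changes were 2.28 ± 0.29 (adjusted p = 2.83e-05) and -2.35 ± 0.53 (adjusted p = 0.0109). Ctrl library 2 of CRK23 held 2.40 times the CPM of library 3, and without that library the changes were 3.04 at low boron, still called, and -1.58 at high boron, no longer called. CRK23 footprints, 6.53 and 6.43 CPM at low boron, 1.14 and 1.47 CPM in Ctrl and 0.666 and 0.822 CPM at high boron, were called at low boron only, at 2.34 ± 0.36 (adjusted p = 0.00044). The CRK23 mRNA fall was also lost without either high-boron library (adjusted p from 4.85e-05 to 0.0969 over the alternatives). The CRK15 mRNA fall was lost with limma voom, without Ctrl library 2 and without either library of high boron (adjusted p from 3.23e-05 to 0.188 over the alternatives). The CRK15 footprint fall was lost without library 2 of Ctrl or of high boron (adjusted p from 0.000241 to 0.0898 over the alternatives).

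Of the other genes in the run, CRK11, CRK12, CRK18, CRK22, CRK24 and CRK8 rose in mRNA at low boron and were not called at high boron, with low-boron changes between 0.47 for CRK22 and 1.42 for CRK24. CRK11, a gene induced by salicylic acid, had 56.9 and 55.1 CPM at low boron, against 22.9 and 25.9 CPM in Ctrl, and rose by 1.20 ± 0.11 (adjusted p = 9.28e-07). The CRK8 rise was lost with DESeq2 and without low-boron library 3 (adjusted p from 0.00123 to 0.0925 over the alternatives). CRK21 was the one member whose mRNA rose at both supplies, with 48.0 and 47.2 CPM at low boron, 39.7 and 37.8 CPM in Ctrl and 46.9 and 56.0 CPM at high boron. Its changes were 0.30 ± 0.10 (adjusted p = 0.0391) and 0.41 ± 0.10 (adjusted p = 0.0206). Both were lost with DESeq2, and without Ctrl library 3 among others (adjusted p up to 0.244 at low boron and 0.194 at high boron). CRK21 footprints were 54.7 and 51.2 CPM at low boron, 39.5 and 60.6 CPM in Ctrl and 49.3 and 44.5 CPM at high boron. They overlapped Ctrl at both supplies. CRK16 and CRK17 were called at neither supply in either assay.

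**Figure D3:**
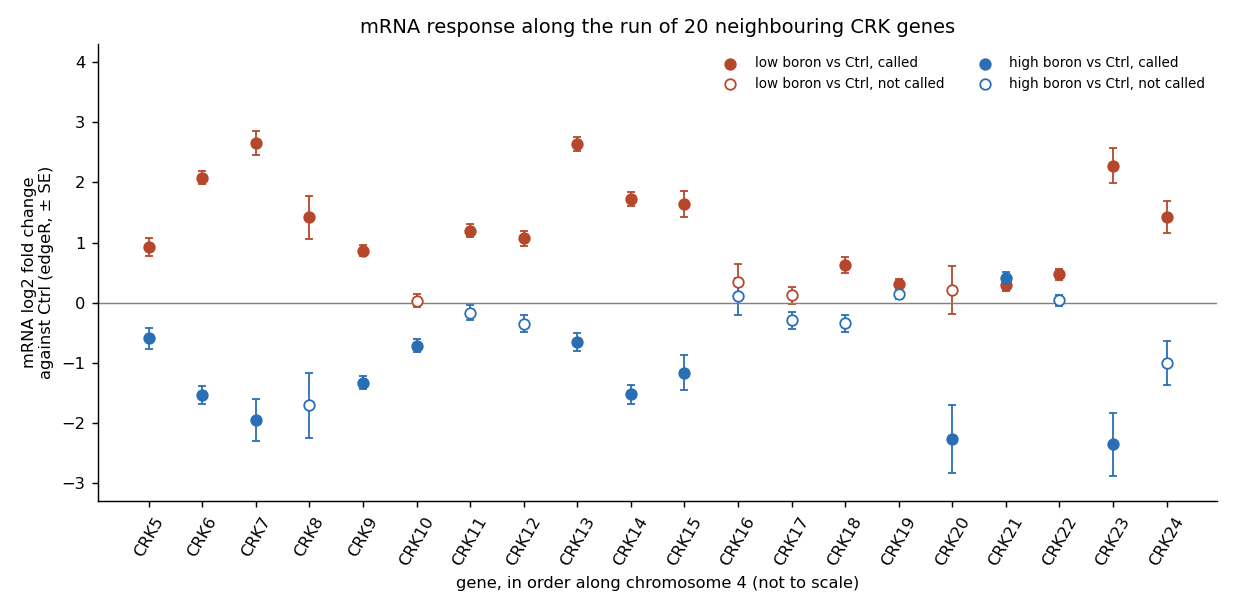
mRNA log2 fold change against Ctrl (edgeR, ± SE) for CRK5 to CRK24 in their order along chromosome 4, evenly spaced and not to scale, with filled points for calls. CRK6, CRK7, CRK13, CRK14 and CRK23 lie far above 0 at low boron and below it at high boron, while CRK16, CRK17, CRK19, CRK21 and CRK22 lie nearer 0 at both supplies.

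The remaining members lie in smaller groups or alone. In the AT4G11460 to AT4G11530 run (CRK30 to CRK34), 3 of the 5 genes were tested, none rose at low boron, and CRK30 was the one member to fall there. CRK30 mRNA was 19.3 and 17.3 CPM at low boron, 29.7 and 30.2 CPM in Ctrl and 31.2 and 27.1 CPM at high boron. The log2 change was -0.71 ± 0.12 (adjusted p = 0.000495) at low boron and -0.04 ± 0.12 (adjusted p = 0.882) at high boron. Both low-boron libraries lay below the other 4, and its footprints, 15.1 and 13.1 CPM at low boron, 20.9 and 24.5 CPM in Ctrl and 17.4 and 19.9 CPM at high boron, fell likewise, with a log2 change of -0.67 ± 0.19 (adjusted p = 0.0294). This call was lost without any 1 of the low-boron and Ctrl libraries (adjusted p from 0.0187 to 0.261 over the alternatives).

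CRK3, the neighbour of CRK2 on chromosome 1, had 65.4 and 62.0 CPM at low boron, against 42.5 and 40.1 CPM in Ctrl, with a rise of 0.62 ± 0.11 (adjusted p = 0.000495). CRK25, CRK27, CRK31, CRK34, CRK41 and CRK42 were called against Ctrl at neither supply in either assay. Their low-boron mRNA changes lay between -0.02 for CRK41 and 0.92 for CRK31.

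In footprints, 19 of the 36 members tested rose and 1 fell at low boron, while 15.0% of the 17697 genes tested were called, 8.05% higher and 6.92% lower. The members' median log2 change was 0.67, beside 0.00 over all genes. At high boron, 9 fell and the other 27 were not called, while 1.98% of all genes were called, 1.51% lower and 0.463% higher. The 9 that fell were CRK4, CRK5, CRK6, CRK7, CRK9, CRK13, CRK14, CRK15 and CRK39, with a median over all 36 of -0.66. CRK8 passed the footprint filter only through its low-boron libraries. Calls came to 12 in place of 20 at low boron without low-boron library 3. At high boron they came to 4 in place of 9 without either Ctrl library and to 1, CRK4, without high-boron library 2.

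High boron set directly against low boron gave the widest contrast. In mRNA, 30 of the 37 members were lower and 1 was higher at high boron, while 42.4% of all genes were called, 23.1% lower and 19.3% higher, and the members' median log2 difference was -1.37. In footprints, 28 of the 36 were lower and the other 8 were not called, with 20.7% of all genes called, 11.3% lower and 9.34% higher, and a median of -1.40. CRK8, which passed that filter only through low boron, is among the 28, and without it 27 of 35 were lower, with a median of -1.33. The 4 largest mRNA differences, in no order, were -4.97 ± 0.24 for CRK4, -4.94 ± 0.23 for CRK37, -4.91 ± 0.35 for CRK38 and -4.88 ± 0.42 for CRK39. Without high-boron library 3 the CRK38 difference came to -5.56. CRK39, one of the 30 lower in mRNA, passed the mRNA filter only with its low-boron libraries counted. The member higher at high boron was CRK30, at 0.66 ± 0.13 (adjusted p = 0.000623).

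Translation efficiency, the change in footprints beyond the change in mRNA, came from an interaction term between assay and supply, fitted over all 12 libraries. Against Ctrl, 0 of the 36 members tested were called at either supply by edgeR, DESeq2 or limma voom. Of all 17306 genes, edgeR called 0.0231% at low boron, all of them higher, and 0.734% at high boron, 0.0347% higher and 0.699% lower. At an unadjusted p under 0.05 there were 4 members at low boron and 5 at high boron, beside 6.06% and 8.26% of all genes. The members' median log2 change was -0.18 at low boron and -0.10 at high boron, beside -0.05 and 0.03 over all genes.

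Between high and low boron, 2 members were called, 1 in each direction, while 1.62% of all genes were called, 1.30% lower and 0.324% higher. At an unadjusted p under 0.05 there were 11 of the 36 members, beside 9.89% of all genes. The members' median log2 difference was 0.17, beside 0.09 over all genes. CRK14 had a higher efficiency at high boron, by 1.17 ± 0.25 (adjusted p = 0.0234). Its mRNA was 6.93 and 6.93 CPM at high boron, against 65.7 and 66.1 CPM at low boron. Its footprints were 23.5 and 33.9 CPM at high boron, against 109.5 and 128 CPM at low boron. CRK28 had a lower efficiency at high boron, by -1.50 ± 0.29 (adjusted p = 0.0104). Its mRNA was 27.3 and 21.2 CPM at high boron, against 38.7 and 44.5 CPM at low boron, and its footprints were 2.44 and 2.06 CPM, against 10.5 and 11.8 CPM. Both calls depended on single libraries. CRK28 was lost without mRNA library 2 of either supply (adjusted p from 0.00266 to 0.0666 over the alternatives). CRK14 was lost with limma voom and without any 1 of 6 libraries, the 4 mRNA libraries of these supplies, low-boron footprint library 2 and high-boron footprint library 3 (adjusted p from 0.00633 to 0.142 over the alternatives).

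The family also differed within itself in footprints per mRNA. This ratio is taken within a gene, as log2 of footprint over mRNA CPM, and so does not depend on gene length. In Ctrl shoots the median of the 36 members was 0.25, beside -0.41 over 17306 genes, and 26 of the 36 lay above the all-gene median. The members ran between -2.89 ± 0.21 for CRK28 and 1.61 ± 0.35 for CRK39, and 12 of the 36 exceeded the 90th percentile of all genes, 0.72. The CRK39 ratio rests on 10 and 17 mRNA counts in Ctrl, and CRK39 passed the mRNA filter only with its low-boron libraries counted.

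High ratios came from CRK14 (1.38 ± 0.17), CRK12 (1.34 ± 0.14), CRK41, CRK11, CRK9 and CRK10 (1.06 ± 0.14). At the low end, CRK28 and CRK8 (-2.42 ± 0.59) lay under the 10th percentile, -1.86, and CRK29 followed at -1.66 ± 0.19. The CRK8 ratio rests on 3 and 3 footprint counts in Ctrl, and CRK8 passed the footprint filter only through low boron. The annotated spans of CRK28 and CRK29 overlap, as do those of CRK10 and CRK11. Reads of each pair may not have been fully separated in either assay, which bears on these ratios. CRK28 had 3.02 and 4.25 CPM of footprints and 25.3 and 27.0 CPM of mRNA in Ctrl, and CRK14 had 49.9 and 54.0 CPM of footprints and 22.4 and 17.4 CPM of mRNA.

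**Figure D4:**
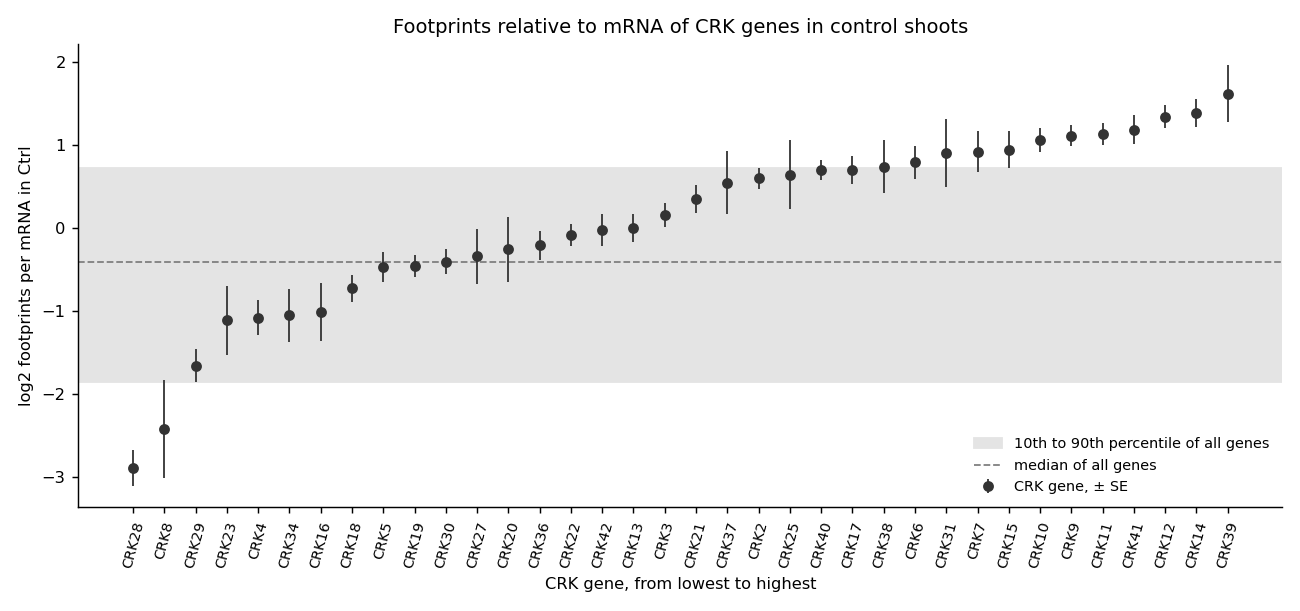
log2 footprints over mRNA in Ctrl shoots for the 36 CRK genes tested (± SE), with a dashed line at the median and a grey band between the 10th and 90th percentiles of all 17306 genes. CRK28 and CRK8 lie under the 10th percentile and 12 members lie above the 90th.

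Genes of immune receptor complexes, salicylate, defence and the wall, and relatives of CRKs, are given by lists chosen with earlier results of these data known. Of 14 genes of immune receptor complexes and the oxidative burst, mRNA rose in 13 at low boron and fell in 4 at high boron, with medians of 0.64 and -0.22. Footprints rose in 6 and fell in 2 at these supplies. Of all genes tested, 19.5% were called higher at low boron and 4.55% lower at high boron in mRNA, and 8.05% and 1.51% in footprints. The all-gene mRNA medians were 0.02 and -0.01. At low boron the adaptor kinase SOBIR1 changed by 1.73 ± 0.12 (adjusted p = 8.68e-08), the co-receptor SERK4 by 1.18 ± 0.10 (adjusted p = 8.22e-07), and BIK1 by 0.87 ± 0.10 (adjusted p = 1.63e-05). RBOHD, the oxidase that CRK2 phosphorylates, changed by 0.71 ± 0.11 (adjusted p = 0.000144) at low boron and -0.59 ± 0.12 (adjusted p = 0.0045) at high boron.

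Of 16 salicylate genes, mRNA rose in 14 at low boron and fell in 10 at high boron, with medians of 1.80 and -0.67. Their footprints rose in 14 and fell in 7. The largest rises were FMO1, which makes N-hydroxypipecolic acid (3.13 ± 0.14, adjusted p = 1.91e-09), and BGL2, a pathogenesis-related glucanase (2.91 ± 0.22, adjusted p = 2.03e-07). SARD1, a factor that activates salicylate synthesis, fell most at high boron (-2.04 ± 0.14, adjusted p = 1.23e-06). Of 9 defence WRKY factors, the mRNA of 8 was higher at low boron and that of 6 lower at high boron, with WRKY46 rising by 3.48 ± 0.14 and WRKY38 changing by -1.64 ± 0.26 (adjusted p = 0.00103) at high boron. In footprints 7 of the 9 rose and 2 fell. Beside both lists, 19.5% of all genes were called higher at low boron and 4.55% lower at high boron in mRNA. For footprints these shares were 8.05% and 1.51%.

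Of 7 wall receptor kinases, 5 were tested: in mRNA, 4 rose at low boron, led by WAK1 (1.20 ± 0.15, adjusted p = 1.81e-05), while at high boron 3 fell and THE1 rose (0.72 ± 0.09, adjusted p = 0.00012). Of all genes tested in mRNA, 19.5% rose at low boron, and 4.55% fell and 4.50% rose at high boron. In footprints 3 of the 5 rose at low boron, and at high boron 3 fell and 0 rose. The THE1 rise in mRNA thus had no called rise in footprints. Of all genes tested in footprints, 8.05% rose at low boron, and 1.51% fell and 0.463% rose at high boron. For translation efficiency 1 of the 5, with a change of -1.96, was called lower at high boron, beside 0.699% of all genes. Of the 8 PDLPs, 7 were tested, and in mRNA at low boron PDLP1 and HWI1 (PDLP5) rose (2.24 ± 0.34, adjusted p = 0.000142 and 0.84 ± 0.22, adjusted p = 0.009) and PDLP3 fell (-0.80 ± 0.10, adjusted p = 3.34e-05), where 19.5% of all genes rose and 13.8% fell. In footprints PDLP1 rose and PDLP3 fell at low boron, and the other 5 were not called, where 8.05% of all genes rose and 6.92% fell. Of 5 CRK-related genes outside the 41 members, 2 were tested, and ARCK1, a cytosolic kinase that binds CRK36 in abscisic acid signalling, changed in mRNA by 2.26 ± 0.09 (adjusted p = 5.52e-10) at low boron and -1.20 ± 0.12 (adjusted p = 1.56e-05) at high boron.

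Some markers of cell types moved with boron as well. The summed mRNA of 3 guard cell genes was 47.6 and 45.9 CPM at low boron, 67.3 and 58.8 CPM in Ctrl and 87.4 and 78.1 CPM at high boron. That of 2 epidermis genes was 268 and 246 CPM at low boron, 323 and 363 CPM in Ctrl and 369 and 401 CPM at high boron, and that of 4 green-tissue genes was 12521 and 12568 CPM, 17640 and 16501 CPM and 15417 and 15859 CPM at the same supplies. In mRNA the guard cell and epidermis sums ran opposite to the CRK sum. In footprints the guard cell sum was 14.6 and 19.2 CPM at low boron, 31.9 and 33.3 CPM in Ctrl and 31.6 and 33.2 CPM at high boron. The epidermis footprint sum was 287 and 301 CPM, 339 and 399 CPM and 407 and 426 CPM at the same supplies. Its 2 genes parted at high boron. KCS10 footprints were 272 and 343 CPM in Ctrl and 358 and 377 CPM at high boron. Those of ATML1 were 66.8 and 55.9 CPM in Ctrl and 49.1 and 49.1 CPM at high boron. The part of these cell types in the family's changes was not tested.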

How the data were processed

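Counts per gene in 6 mRNA and 6 footprint libraries of whole shoots, 2 per boron supply and assay, were used as deposited by the authors. Per the submitters' processing notes the tools included Bowtie2 and SAMtools. The genome build, counting tool and treatment of reads that match several genes are not given in the sources used here, which bears on near-identical CRK neighbours. The column names number the libraries 2 and 3 where the labels number them 1 and 2, so columns were assigned to groups only. Of 27655 gene IDs, 27445 matched a RefSeq row (TAIR10.1), used for symbols and neighbours.

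Each assay was fitted with edgeR 4.0.16 (R 4.3.3): TMM, filterByExpr, quasi-likelihood test, all 3 supplies in 1 fit, Benjamini-Hochberg adjustment over all genes tested, threshold 0.05. Translation efficiency was the interaction of assay and supply over 12 libraries for genes passing both filters. SE is the size of the log2 change over the square root of F. Spread between libraries, as edgeR's common coefficient of variation, was 6.92% for mRNA and 14.9% for footprints. The labels call the replicates biological, and p-values rest on 2 libraries per group. The fits were also run on simulated data with known changes, set only in genes with mean counts over 50 in both assays. Those runs do not cover members at a few CPM.

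Named genes were those called for translation efficiency, the 8 largest called rises and falls per comparison with Ctrl and assay, those called in opposite directions, members with no counts, members with known roles, and up to 4 called members of each list. CRK30 in high against low boron and the members named outside these rules were chosen after their values were seen. The members and lists were chosen with earlier results of these data known. Gene lengths, promoters and protein sequences were not used here, so the planned comparison of levels per length and motif searches were left out. Same-numbered libraries deviated together with correlations between -0.03 and 0.18, so the numbers were not treated as pairs. Alternatives were DESeq2 1.42.0, limma 3.58.1 voom, DESeq2 size factors, no filter, a strict filter (a mean count of 50 in every group), a replicate block, fits of 2 groups, removal of organelle genes, and leaving out each library.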

Additional observations from a re-analysis of the deposited data

How the results depend on the processing

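No member's called change reversed under any alternative. With the strict filter, which left 23 members to test, the calls were 17 in mRNA at low boron, 7 in mRNA at high boron, 19 in mRNA between high and low boron and 17 in footprints between high and low boron. For translation efficiency between high and low boron, limma voom gave 1 call in place of 2. The strict filter also gave 1, because it removed CRK28, which had 33 and 15 footprint counts at high boron. With the replicate block, members called in mRNA were 26 at low boron, 13 at high boron and 31 between high and low boron, in footprints 21, 10 and 28, and for translation efficiency 0, 0 and 2. Leaving out each library in turn gave 23 to 27 calls in mRNA at low boron, 7 to 16 at high boron and 28 to 32 between high and low boron. In footprints it gave 12 to 20, 1 to 9 and 19 to 28, and for translation efficiency 0 to 0, 0 to 0 and 0 to 2. Some calls against Ctrl held under each alternative in which the member was tested. In mRNA these were 23 of 26 at low boron and 6 of 14 at high boron, and in footprints 12 of 20 and 1 of 9. A member that the strict filter removed was not tested there and could still count as held. Where a call was lost, the cause was not tested. Depth limits the members at a few CPM, such as CRK8, CRK20 and CRK23, for which a handful of counts sets the high-boron value.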
